A study of Mus musculus with 21 samples.

Results

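The comparison concerned mouse CD8 T cells grown with IL-2v at 50 IU/mL, sampled on day 10 and on day 5. All cells of the 2 libraries entered, 5090 on day 10 and 5079 on day 5, which made 10169 of the 106458 cells of the series. The cells were OT1 T cells, which carry a transgenic T cell receptor specific for an ovalbumin peptide. Naive cells (day 0) had been activated with beads bearing antibodies to CD3 and CD28 and then kept in cytokine. The treatment label of both libraries names a mutant IL-2bg at 50 IU/mL, and published work describes IL-2v as an IL-2 variant that does not bind the alpha chain of the receptor, CD25. The other groups used here were naive cells, the day 3 library of the IL-2v 50 IU/mL culture, and the day 5 and day 10 libraries of 5 more cultures, with IL-2 50, IL-15 50, IL-2v 5, IL-2 5 and IL-15 5 IU/mL. Of these, the 50 IU/mL libraries of IL-2 and IL-15 carry treatment labels that name interleukin-3 and interleukin-16, and their titles were followed. The labels also describe a sort of CD44+CD45.1+ cells from tumours, and whether such a sort was applied to the cultured cells is not clear from them. Each condition had 1 library, so nothing below is tested, and intervals cover counting error only.

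IL-2 signals through a receptor made of an alpha chain (Il2ra, CD25), a beta chain (Il2rb) and the common gamma chain (Il2rg), which activate JAK kinases and the transcription factor STAT5. The alpha chain raises affinity and is not needed for signalling, so a variant that spares it acts through the beta and gamma chains alone. In CD8 T cells the pathway drives division and the making of granzymes, proteases that killer cells deliver to targets through the pore protein perforin. Prolonged strong IL-2 receptor signals are known to favour effector over memory features.

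The genes furthest up on day 10 were 4 granzymes, Gzmd, Gzme, Gzmg and Gzmf, which lie with Gzmc and Gzmb in a row on mouse chromosome 14 (GRCm38), for example Gzme at chr14:56117626-56120625, Gzmd at chr14:56129556-56132608 and Gzmc at chr14:56231441-56234656. The stretches just upstream of their transcription starts are shown because these 4 genes and Gzmc, all higher on day 10, share them nearly letter for letter. They come from RefSeq (GRCm38.p6), are written 5′ to 3′ on the coding (minus) strand, and begin 100 (Gzmc), 104 (Gzmd), 105 (Gzme), 125 (Gzmf) and 120 (Gzmg) bases before the annotated start. Capitals mark the longest block that is identical in all 5, of 20 bases.
Gzmc: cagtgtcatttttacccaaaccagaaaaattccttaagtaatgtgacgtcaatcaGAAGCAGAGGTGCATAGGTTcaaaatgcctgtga
Gzmd: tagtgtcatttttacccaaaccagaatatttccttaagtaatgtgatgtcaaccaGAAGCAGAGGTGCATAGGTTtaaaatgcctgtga
Gzme: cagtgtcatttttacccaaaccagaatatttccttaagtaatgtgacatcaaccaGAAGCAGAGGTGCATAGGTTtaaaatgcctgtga
Gzmf: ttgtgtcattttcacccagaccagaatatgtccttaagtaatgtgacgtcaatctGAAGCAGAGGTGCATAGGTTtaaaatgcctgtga
Gzmg: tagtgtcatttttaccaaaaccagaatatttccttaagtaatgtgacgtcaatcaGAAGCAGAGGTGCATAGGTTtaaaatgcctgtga

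Over these 89 bases the 10 pairs of genes were 89.9% to 96.6% identical. Searched on both strands, the block occurred in 5 of 27025 promoter windows (0.0185%), those of the same 5 genes, and it was absent from the windows of Gzmb, Gzmn and Gzma. A match describes the sequence and is not evidence of a binding site.

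A second group of genes higher on day 10 included targets of type I interferon, a cytokine signal of antiviral defence that acts through a complex of transcription factors. The upstream stretches of 3 of them are shown because they hold the repeat that this complex is known to recognise, GAAANNGAAA, searched on both strands and marked in capitals. Of the 3 genes, only Isg15 is among the 15 genes furthest up, and Irf7, also among those 15, has 0 matches in its window of 250 bases. Sites outside the window, at other starts or with another sequence were not searched for. Matches may overlap, and the Isg15 stretch holds 3. The stretches lie at chr4:156200860-156200911 (Isg15, minus strand), chr19:34640770-34640828 (Ifit1, plus strand) and chr8:71537572-71537617 (Bst2, minus strand).
Isg15: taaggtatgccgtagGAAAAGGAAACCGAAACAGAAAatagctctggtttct
Ifit1: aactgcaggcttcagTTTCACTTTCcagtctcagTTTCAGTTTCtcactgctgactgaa
Bst2: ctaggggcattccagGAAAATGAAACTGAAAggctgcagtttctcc

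The repeat occurred in 3.04% of all promoter windows and in 12 of the 21 interferon-stimulated genes of the list that had a window. Among those that were measured, it was present in 4 of 7 genes at least 2-fold higher on day 10 and in 5 of 9 genes that were not. Its presence in these windows therefore did not separate the genes that were higher from the rest.

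The cells were T cells on both days. The 9 T cell markers summed to 5091 CPM (UMIs of a gene, scaled to the same total in each library) on day 5 and 5195 CPM on day 10, and Cd8a was at 265 and 171 CPM while Cd4 was at 0.651 and 0.0733 CPM. Of 7 B cell markers, 5 were at 0 on both days. The myeloid markers Lyz2, Csf1r, Adgre1 and Spi1 and the NK cell markers Ncr1, Klra8 and Klra4 were at 0 on both days. Of the 52.4 CPM to which the myeloid list summed on day 10, Fcer1g gave 44.3 CPM, against 5.48 CPM on day 5. The NK list summed to 89.6 and 668 CPM, of which Gzma and Eomes gave most. The remaining NK marker, Klrb1c, was at 1.12 and 36.7 CPM. The CD4 list summed to 157 and 52.6 CPM, of which Ctla4 gave 129 and 33.6 CPM and Zbtb7b 27.1 and 19.0 CPM. The gamma delta list summed to 117 and 134 CPM.

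The libraries held 21520466 UMIs on day 5 and 27293158 on day 10, with medians of 3924 and 4926 UMIs per cell, and shared 4 cell barcodes. A difference was taken between log2(CPM + 1) values of UMIs summed over cells, a scale that understates low genes, and counted at 2-fold among the 6147 genes with at least 20 CPM on either day. By this measure 97 genes were higher on day 10 (1.58% of those measured) and 714 were lower (11.6%), and the median difference was -0.37. The balance depends on the scale. Ribosomal protein genes took 27.7% of UMIs on day 5 and 35.7% on day 10, and 70 of the 81 measured were above 0. With TMM scaling the ratio of the days moved up by 0.40 on the log2 scale, and 252 genes were higher and 299 lower, so that 45.7% of the called genes were higher in place of 12.0%. With totals that leave out ribosomal protein and mitochondrial genes, 180 were higher and 558 lower (24.4%). Both scalings move the ratio of the days up, by 0.40 and 0.21, so all 97 higher genes had to stay higher, and did. Of the 714 lower genes, 299 remained lower under TMM and 471 without those families. List medians are therefore read against -0.37. A gene enters by reaching 20 CPM on either day, and 388 of the 714 lower genes did so on day 5 alone and 48 of the 97 higher genes on day 10 alone. Such genes had to differ, so counts over the lists below are descriptions. Mitochondrial transcripts made 3.68% of UMIs on day 5 and 4.85% on day 10, and 21.5% and 49.0% of cells had more than 5% of them. Among cells with at most 5%, 108 genes were higher and 817 lower.

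Gzmd, Gzme, Gzmg and Gzmf had the largest differences of the genes named by rank. Gzmd was at 1.12 CPM on day 5 (95% interval 0.715 to 1.66) and 424 CPM on day 10 (417 to 432), a log2 difference of 7.65. Gzmg was at 1.86 CPM and 338 CPM (6.89), Gzme at 0.232 CPM and 199 CPM (7.34), and Gzmf at 0.604 CPM and 68.5 CPM (5.44). Gzmc, already present on day 5, was at 139 CPM and then 773 CPM (2.47). All 5 members of the list that passed the filter were higher (1.58% of all genes were). Gzmd, Gzme, Gzmg and Gzmf passed it only through their day 10 level, so the count is a description. With a pseudocount of 10 in place of 1, which weighs low levels less, the difference was 5.29 for Gzmd and 2.89 for Gzmf. The intervals of days 5 and 10 overlapped for none of the 5. At this depth small differences also have separate intervals, such as Cd3d (log2 difference 0.25, 899 to 924 and 1075 to 1100 CPM). The share of all genes with separate intervals is not given here. The remaining member, Gzmn, failed the filter with 0 CPM on day 5 and 0.513 CPM on day 10. These genes are near copies: 38.2% of the stretches of 31 bases in Gzmd transcripts, 42.1% in Gzme and 33.8% in Gzmg also occur in transcripts of other genes, so how the authors' counting divided reads among them is uncertain, and their joint level is firmer than each value. On day 5 the few Gzmg and Gzmd UMIs were concentrated, with 33 of the 40 Gzmg UMIs and 14 of the 24 Gzmd UMIs in 1 cell each. The 13 Gzmf UMIs came from 13 cells, the 5 Gzme UMIs from 4 cells, and the 2990 Gzmc UMIs from 840 cells.

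**Figure D1:**
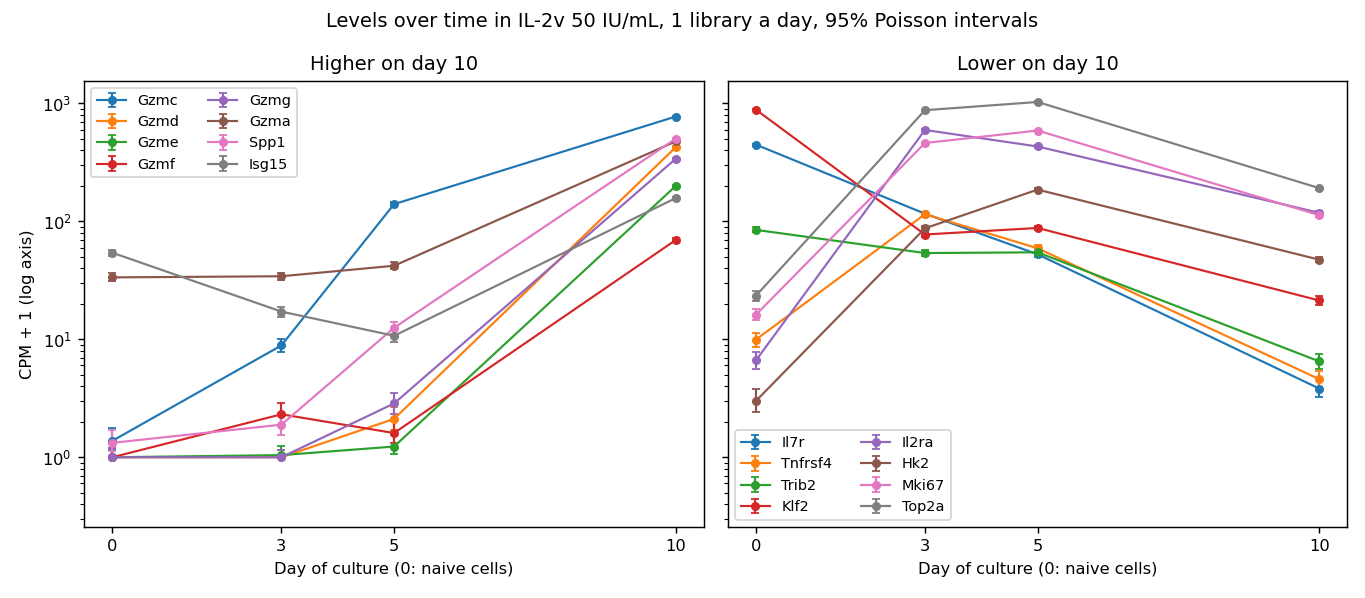
Levels (CPM + 1, log axis) of 8 genes higher and 8 genes lower on day 10, in naive cells and on days 3, 5 and 10 of the IL-2v 50 IU/mL culture, with 1 library per day and 95% Poisson intervals. Gzmd and Gzmg were at 0 on days 0 and 3 and at 424 and 338 CPM on day 10, while Il7r went from 446 CPM in naive cells to 2.82 CPM.

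Other killing genes differed less. Of 12 measured genes of the granule and killing list, 5 were at least 2-fold higher (1.58% of all genes were) and none was lower. Of the 5, Fasl reached 20 CPM on day 10 alone. Gzma, a tryptase encoded apart from the others at chr13:113093825-113100981, was at 41.0 CPM on day 5 and 475 CPM on day 10, 11.6 times as much (10.8 to 12.4). Perforin (Prf1) was at 33.1 and 76.5 CPM, Nkg7, a granule membrane protein, at 657 and 1529 CPM, the death ligand Fasl at 14.8 and 38.7 CPM, and the protease Ctsd at 198 and 401 CPM. Gzmb, the main granzyme of killer cells, stood at 1938 CPM on day 5 and 3143 CPM on day 10. This difference of 0.70 did not reach 2-fold, but passes it with TMM scaling. The 6 measured serpins, a family that includes inhibitors of granzymes, ranged from 0.14 to 0.90 with a median of 0.65. Among cytokines, Spp1 (osteopontin, chr5:104435118-104441050) was at 11.5 CPM on day 5 and 501 CPM on day 10, and the chemokine Ccl5 at 75.0 and 162 CPM, while the lymphotoxin gene Lta was at 55.9 and 25.2 CPM. Ifng was below the filter, with 0.511 and 2.60 CPM.

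The late granzymes came from a minority of cells. For shares, each cell was thinned at random to 2000 UMIs, which left out 299 cells on day 5 and 142 on day 10. On day 10, 592 of 4948 cells (12.0%, interval 11.1% to 12.9%) had a UMI of Gzmd, Gzme, Gzmf or Gzmg, against 8 of 4780 cells on day 5 (0.167%). Among naive cells it was 0 of 4471, which allows up to 0.0671%, taken as 3 of 4471 cells and not as a Clopper-Pearson bound. Without thinning the shares were 16.7% and 0.394%. Positive cells on day 10 held a mean of 12.7 of these UMIs and a median of 4. Of the 592 cells, 191 had only 1 such UMI, 195 had at least 10, and 334 had UMIs of 2 or more of the 4 genes. Gzmb was far more widespread, in 90.7% of cells on day 5 and 94.3% on day 10. Gzma was in 3.39% and 19.8% of cells, Spp1 in 1.99% and 25.1%, and Nkg7 in 68.4% and 92.7%. Free RNA can give single UMIs to cells that do not express a gene, and no other cell type was numerous enough here to measure it.

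Cells with and without late granzymes were set apart within the day 10 library, a split chosen after the data were seen. Among 2532 genes with at least 50 CPM in either kind of cell, 28 (1.11%) were at least 2-fold higher in the 592 positive cells and 50 (1.97%) were lower. The numbers depend on the split, with 19 higher and 20 lower without thinning, and 56 and 118 where at least 3 UMIs were asked for. The highest were Gzmc (3106 against 256 CPM), the inhibitory receptor Havcr2 (61.7 against 5.17 CPM), Sema6d (50.7 against 4.71 CPM), Spp1 (1785 against 228 CPM) and Fcer1g, a signalling chain shared by activating receptors (147 against 18.4 CPM). Prf1 was at 213 against 46.5 CPM and Gzma at 1164 against 306 CPM. Spp1 was detected in 63.9% of the positive cells and 19.8% of the others. The lowest included the interferon-stimulated genes Ifi27l2a (294 against 1086 CPM) and Rtp4 (15.2 against 51.1 CPM). Of 18 interferon-stimulated genes, 7 were at least 2-fold lower and none was higher, with a median of -0.91. A gene entered by reaching 50 CPM in either kind of cell, so genes that did so in 1 kind alone had to differ. Of the 7, only Ifi27l2a reached it in both kinds, while Havcr2, Sema6d, Fcer1g and Prf1 reached it in the positive cells alone. The counts of this split are therefore descriptions. Cycling cells, in which Mki67 or Top2a was detected, made 9.97% of positive cells (7.67% to 12.7%) and 18.6% of the others (17.4% to 19.8%). All cells of the split share 1 library, so the intervals say nothing of how another culture would divide.

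**Figure D2:**
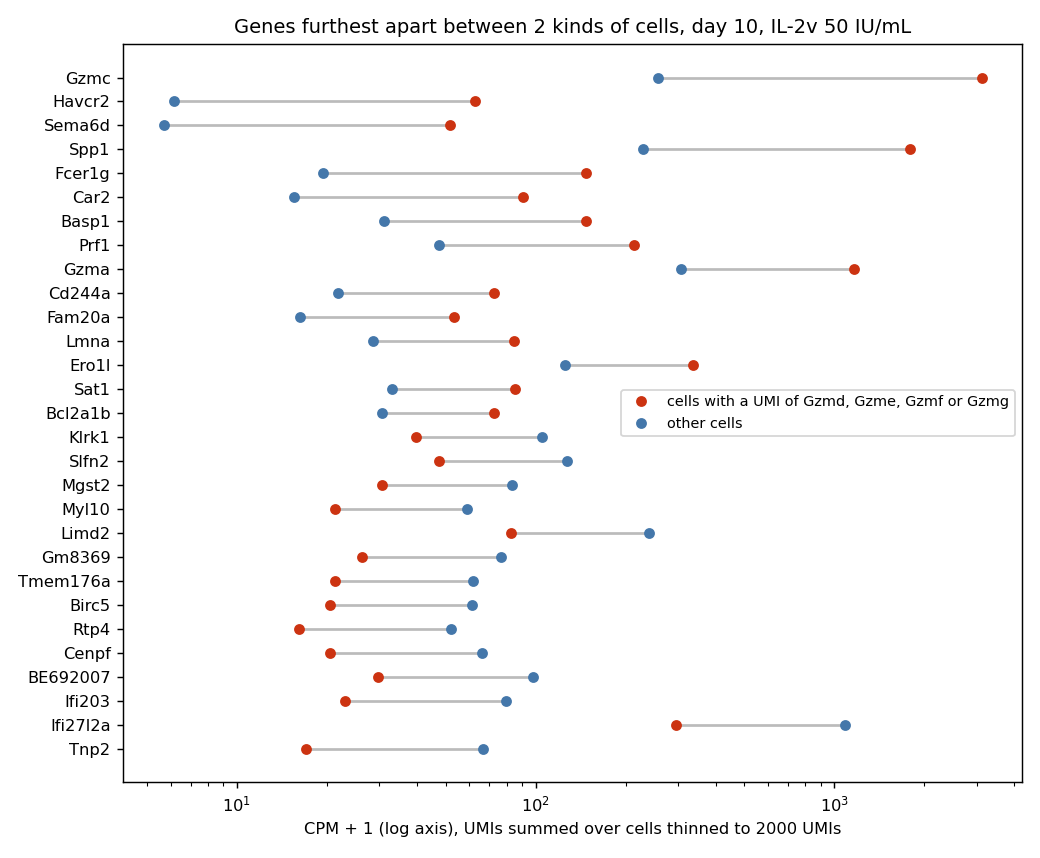
CPM + 1 (log axis) of the 15 genes furthest up and 14 of the 15 furthest down in day 10 cells with a UMI of Gzmd, Gzme, Gzmf or Gzmg (red, 592 cells) against the other cells (blue, 4356 cells), the 4 genes themselves left out. Gzmc, Havcr2 and Spp1 are among those higher in the positive cells, and Ifi27l2a and Rtp4 among those lower.

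Interferon-stimulated genes formed the second group. Of 23 measured, 10 were at least 2-fold higher and 1 was lower (1.58% and 11.6% of all genes were), and 6 listed genes failed the filter. Of the 10, 5 (Isg15, Ifit1, Rtp4, Irf7 and Xaf1) passed the filter only through their day 10 level, so the count is a description. Isg15, a ubiquitin-like protein (chr4:156199424-156200818), was at 9.71 CPM on day 5 and 157 CPM on day 10, 16.1 times as much. Ifit1, which binds foreign RNA, was at 2.23 and 26.0 CPM, Rtp4 at 3.76 and 43.7 CPM, and Irf7, the transcription factor that amplifies the response, at 9.62 and 52.5 CPM. Bst2 (tetherin) was at 83.5 and 258 CPM, and Ifi27l2a at 227 and 880 CPM. The list did not move as a whole, and 8 of its measured genes were below 0. Gbp2 was at 54.2 and 23.7 CPM, Gbp7 at 191 and 107 CPM, Iigp1 at 65.9 and 38.5 CPM and Irf1 at 67.5 and 42.9 CPM, genes chosen after their values were seen. Isg15 was detected in 7.29% of naive cells, 2.05% of cells on day 5 and 23.7% on day 10. The 3 measured Ifitm genes, membrane proteins that block virus entry, were all higher: Ifitm1 at 832 and 2669 CPM, Ifitm2 at 468 and 1131 CPM, and Ifitm3 at 64.8 and 301 CPM. The 21 genes of MHC class I presentation, which interferon also controls, held no gene past 2-fold when scaled to library totals. Their median was 0.10.

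**Figure D3:**
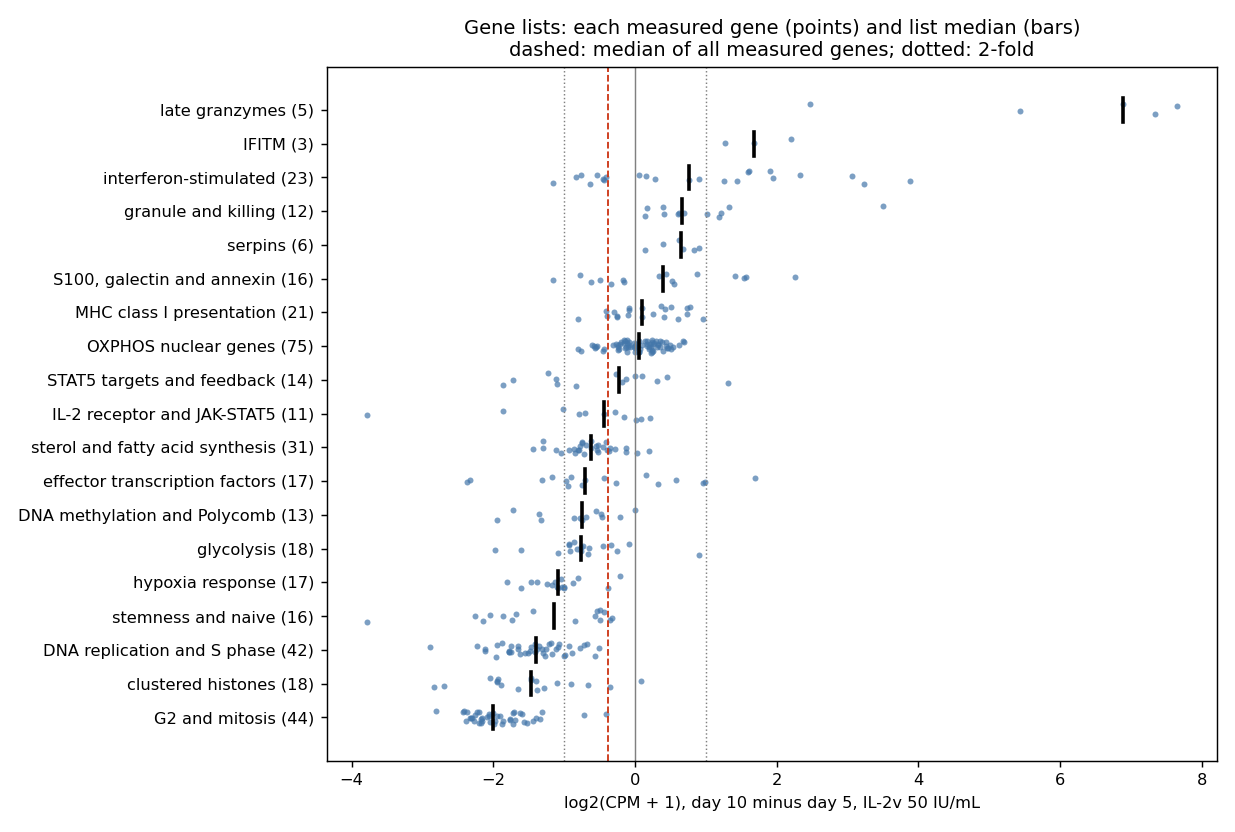
Differences of log2(CPM + 1), day 10 minus day 5, in the IL-2v 50 IU/mL culture for the measured genes of 19 lists (points; numbers in brackets) with list medians (bars), the median of all measured genes (-0.37, dashed) and 2-fold (dotted). Late granzymes lie furthest right with a median of 6.89 and genes of G2 and mitosis furthest left with a median of -2.00.

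The receptor chain that IL-2v does not bind was itself lower. Il2ra was at 430 CPM on day 5 (421 to 439) and 117 CPM on day 10 (113 to 121), a 3.67-fold lower level, and was detected in 51.6% and 18.7% of cells. The chains that IL-2v does use differed little: Il2rb was at 551 and 453 CPM and Il2rg at 180 and 161 CPM, differences of -0.28 and -0.16 that turn positive with TMM scaling. Il7r, the receptor for the survival cytokine IL-7 (chr15:9505788-9530176), was at 51.5 and 2.82 CPM, 18.3-fold lower (14.5 to 23.3), and was detected in 9.12% of cells on day 5 and 0.485% on day 10. Of the 11 measured genes of the receptor and JAK-STAT5 list, 3 were at least 2-fold lower, the remaining one being Stat5b (36.7 and 17.6 CPM), against 11.6% of all genes. Among 14 measured STAT5 targets and feedback genes, 5 were lower (11.6% of all genes were), Il2ra, Pim2, Myc, Lta and Socs2. The 1 higher gene (1.58% of all genes were) was Gadd45g (64.3 and 161 CPM). The median of this list was -0.22 against -0.37 for all genes, and it turns positive with TMM scaling. Myc, which drives growth, was at 158 and 67.0 CPM. The feedback inhibitors Cish (121 and 150 CPM) and Socs1 (111 and 111 CPM) were about level.

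Several genes of naive and stem-like cells were lower. Of 16 measured genes of the stemness and naive list, 8 were at least 2-fold lower (11.6% of all genes were) and none was higher, with a median of -1.14 against -0.37 for all genes. Of the 8, 6 reached 20 CPM on day 5 alone. The 13 measured genes of the memory surface list, by contrast, had a median of 0.06, with 1 higher and 1 lower. Klf2, which keeps T cells quiescent and recirculating, was at 86.9 CPM on day 5 and 20.3 CPM on day 10. Tcf7, the transcription factor TCF1 of stem-like T cells, was at 57.0 and 17.1 CPM, Ccr7, a lymph node homing receptor, at 54.6 and 15.7 CPM, and S1pr1, the exit receptor, at 46.5 and 12.0 CPM. Lef1 (138 and 94.6 CPM) and Cd27 (94.0 and 74.5 CPM) were below 0 by less than 2-fold, and Cd27 is above 0 with TMM scaling. Naive cells held 471 CPM of Tcf7 and 883 CPM of Klf2, so most of the distance from the naive level had been covered by day 5.

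Transcription factors and surface receptors moved in both directions. Of 17 measured effector transcription factors, 1 was higher (1.58% of all genes were), Eomes (47.4 and 156 CPM), and 4 were lower (11.6% of all genes), Ikzf2 (30.8 and 5.13 CPM), Tox (20.1 and 3.19 CPM), Prdm1 (42.9 and 16.6 CPM) and Hif1a (348 and 154 CPM). Id2, which opposes memory formation, was at 429 and 831 CPM, just under 2-fold and past it with TMM scaling. Tox and Prdm1 are known from exhausted T cells. Of 5 measured inhibitory receptors, 2 were lower (11.6% of all genes were), Lag3 (82.8 and 20.2 CPM) and Ctla4 (129 and 33.6 CPM). The 1 higher (1.58% of all genes were) was Lilrb4a (21.3 and 51.1 CPM). In all, 3 of the 5 were above 0, and the list median was 0.42 against -0.37 for all genes. Pdcd1 (3.62 and 0.550 CPM) and Havcr2 (4.79 and 15.7 CPM) were below the filter. The costimulatory receptor Tnfrsf4 (OX40) was at 58.1 and 3.59 CPM, and Tnfrsf9 (4-1BB) at 466 and 556 CPM. The inflammatory chemokine receptor Ccr2 was 5.69 times as high on day 10 (5.28 to 6.15), in 30.6% of cells against 5.86% on day 5, whereas Cxcr4 was at 20.4 and 1.94 CPM and the integrin chain Itga4 at 24.5 and 3.44 CPM. Klrb1c (NK1.1), a receptor of NK cells, was at 1.12 CPM on day 5 and 36.7 CPM on day 10, in 0.146% and 6.04% of cells. Of 16 measured genes of the S100, galectin and annexin list, 4 were higher (1.58% of all genes were) and 1 was lower (11.6% of all genes were), with a median of 0.39. The higher were S100a4 (306 and 904 CPM), S100a6 (1023 and 2984 CPM), Lgals3 (556 and 1486 CPM) and Anxa1 (15.1 and 75.5 CPM), and the lower was Crip1 (1244 and 555 CPM). Anxa1 reached 20 CPM on day 10 alone.

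**Figure D4:**
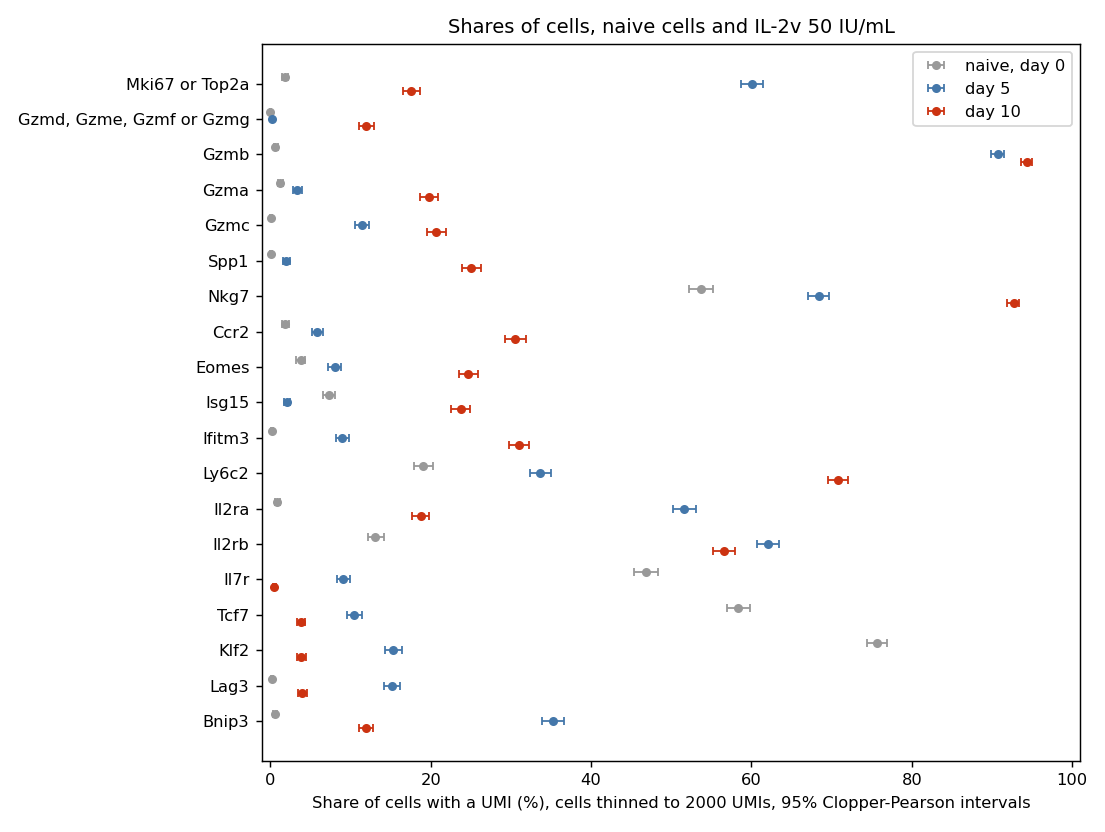
Share of cells with a UMI (percent, 95% Clopper-Pearson intervals) for 19 genes or gene sets in naive cells and in the IL-2v 50 IU/mL culture on days 5 and 10, with every cell thinned to 2000 UMIs. Cycling cells (Mki67 or Top2a) went from 60.1% to 17.5%, and late granzymes from 0.167% to 12.0%.

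Fewer cells expressed genes of division on day 10. Cells with a UMI of Mki67 or Top2a made 60.1% of cells on day 5 (58.7% to 61.5%) and 17.5% on day 10 (16.5% to 18.6%), against 1.79% of naive cells and 78.2% on day 3. Without thinning the shares on days 5 and 10 were 66.7% and 25.0%. Of 44 measured genes of G2 and mitosis, 42 were at least 2-fold lower, with a median of -2.00. Over all genes 11.6% were lower and 1.58% higher, the background for every count in this group. Of the genes of mitosis called lower, 20 reached 20 CPM on day 5 alone, as did 16 of those of replication and 8 of the histones. Top2a, which untangles DNA, was at 1027 CPM on day 5 and 190 CPM on day 10, and Nusap1, a spindle protein, at 260 and 36.3 CPM. Of 42 measured genes of DNA replication, 33 were at least 2-fold lower, with a median of -1.40, among them the helicase subunit Mcm7 (149 and 37.4 CPM) and cyclin E2 (Ccne2, 29.5 and 3.11 CPM). Of 18 measured histone genes 14 were lower, and the exception above 0 was Hist1h2ap (876 and 931 CPM). Histone genes are near copies, so single values are uncertain. Of 17 measured cyclins, inhibitors and other regulators of the cycle, 5 were lower (Cdk2, Cdkn3, Rb1, Rbl1 and E2f2; 11.6% of all genes were) and 2 were higher (1.58% of all genes), with a median of -0.43. The 2 were the inhibitors Cdkn2a (15.8 and 64.7 CPM) and Cdkn2b (3.76 and 24.9 CPM), which passed the filter only through day 10. Of DNA methylation and Polycomb genes, 4 of 13 were lower, against 11.6% of all genes: Dnmt1, Uhrf1, Ezh2 and Suz12.

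Since the share of cycling cells differed, the days were also compared within cells with and without a UMI of Mki67 or Top2a. Among cells without one, 97 genes were higher and 459 lower, and among cells with one, 85 and 390. The genes called here were shared in part: 79 of the 97 higher and 360 of the 714 lower genes were called in the first set, and 75 and 350 in the second. The G2 and mitosis median was -1.47 in cells without such a UMI and -0.80 in cells with one, where the medians of the same 6147 genes were -0.32 and -0.33. Mki67 and Top2a, which define the sets, are members of this list and stood at 0 in the first set by construction. Nusap1, also a member, was at only 9.97 and 0.942 CPM there. The split used cells before thinning, whose depth differed between the days, so these medians are descriptions. The late granzymes were higher on day 10 in both sets, by unequal amounts. Their log2 differences in cells without and with such a UMI were 7.22 and 6.96 for Gzmd, 7.35 and 6.14 for Gzme, 5.79 and 6.66 for Gzmg, 6.0 and 4.09 for Gzmf, and 3.21 and 1.45 for Gzmc. Isg15 had differences of 3.51 and 3.82, Il7r of -4.13 and -3.60, and the hypoxia list had a median of -1.10 in each.

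Most genes of the hypoxia response, targets of HIF1, were lower. Of 17 measured, 13 were at least 2-fold lower (11.6% of all genes were) and none was higher, with a median of -1.09 against -0.37 for all genes. Bnip3, which directs mitochondria to degradation, was at 254 and 72.1 CPM and was detected in 35.3% and 11.9% of cells. Egln3, an oxygen sensor, was at 82.0 and 26.3 CPM, Vegfa at 42.4 and 15.6 CPM and Pdk1 at 138 and 67.9 CPM. Of 18 glycolysis genes 3 were at least 2-fold lower, also a share near the 11.6% of all genes, with a median of -0.77: Hk2 (185 and 46.3 CPM), the lactate exporter Slc16a3 (78.8 and 25.1 CPM) and Pgam1 (453 and 213 CPM). The enolase Eno1 alone was above 0 (516 and 965 CPM). Sterol and fatty acid synthesis held 5 lower genes of 31, Insig1, Dhcr7, Lss, Acly and Elovl6, a share near that of all genes (11.6%), with a median of -0.63. The 75 nuclear genes of oxidative phosphorylation held none past 2-fold when scaled to library totals and had a median of 0.06.

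Some of the genes furthest down carry cautions. Gm42418, at 13467 CPM on day 5 and 2227 CPM on day 10, overlaps an annotated gene on the opposite strand over 99.5% of its exons, and it was lower on day 10 in all 6 cultures, by 1.89 to 2.95 on the log2 scale. Its levels over the 6 cultures were 11100 to 15916 CPM on day 5 and 1704 to 3060 CPM on day 10. Day of culture cannot be told apart from any difference in how the libraries of each day were made, which was not tested. Olfr1369-ps1, the gene furthest down (569 and 28.9 CPM), was also lower in all 6 cultures. Tuba1c shares 55.3% of its 31-base stretches with other genes, mostly Tuba1b. Of the genes furthest up, Gm10260 shares 78.2% with others, mostly Rps18, and Gm36723, a long noncoding RNA (11.8 and 113 CPM), shares 0.495%.

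Set beside the 5 more cultures over the same days, the differences in IL-2v 50 IU/mL had their highest correlation with those in IL-2 50 IU/mL. Across genes, which are not independent replicates, Pearson's r was 0.77 with IL-2 50, 0.45 with IL-2 5, 0.40 with IL-2v 5, 0.36 with IL-15 50 and 0.27 with IL-15 5. The mean absolute gap between the log2 differences was 0.475 for IL-2 50, 0.477 for IL-15 50, 0.532 for IL-2v 5, 0.644 for IL-15 5 and 0.708 for IL-2 5, so that IL-2 50 was closest by this measure too, but by little over IL-15 50. No library was shared between cultures. In IL-2 50 IU/mL, 350 genes were higher (5.99%) and 1135 were lower (19.4%). Of the 97 genes higher here, 64 were higher there (66.0% of the 97 and 18.3% of the 350), and of the 714 lower, 472 were lower there (66.1% and 41.6%). With IL-2v at 5 IU/mL, 115 genes were higher (1.98%) and 244 lower (4.21%), of which 25 and 95 were shared (25.8% and 13.3% of the sets here). With IL-15 50 IU/mL 45 were higher (0.823%) and 243 lower (4.44%), of which 4 and 121 were shared. With IL-2 5 IU/mL 261 were higher (4.62%) and 114 lower (2.02%), of which 40 and 65 were shared (41.2% and 9.10% of the sets here). With IL-15 5 IU/mL 72 were higher (1.32%) and 189 lower (3.46%), of which 0 and 97 were shared. Whether these shares differ from each other was not tested.

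Against IL-2 at the same dose, 312 of 6445 genes (4.84%) had a difference at least 1 above and 353 (5.48%) at least 1 below that of IL-2. The balance turned with the scale, to 392 above and 267 below with TMM and to 542 above and 291 below without ribosomal protein and mitochondrial genes. Late granzymes were much higher with IL-2 on day 10: Gzmg reached 5667 CPM, against 338 CPM with IL-2v, from 2.64 CPM on day 5, and Gzmd reached 3602 CPM against 424 CPM. Prf1 went from 23.6 to 732 CPM with IL-2 and from 33.1 to 76.5 CPM with IL-2v. Late granzymes were detected in 65.3% of cells with IL-2 and 12.0% with IL-2v. Genes of naive cells differed in both directions. Tcf7 was lower with IL-2v on day 5 (57.0 against 69.4 CPM) and higher on day 10 (17.1 against 2.38 CPM), as was Ccr7 (54.6 against 149 CPM, then 15.7 against 2.68 CPM). Il7r was lower with IL-2v on both days, at 51.5 against 159 CPM and then 2.82 against 23.1 CPM. The stemness list had a median of -1.14 with IL-2v and -2.11 with IL-2. Il2ra differed by -1.87 with IL-2v and -0.14 with IL-2, where it was at 330 CPM on day 5 and 300 CPM on day 10. Interferon-stimulated genes had a median of 0.76 with IL-2v and 0.15 with IL-2, and the ribosome biogenesis genes -0.24 and 0.66, of which the -0.24 turns positive with TMM scaling. Of genes past 2-fold in opposite directions there was 1, Bcl3, at 25.8 and 11.8 CPM here and 28.4 and 60.6 CPM with IL-2.

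**Figure D5:**
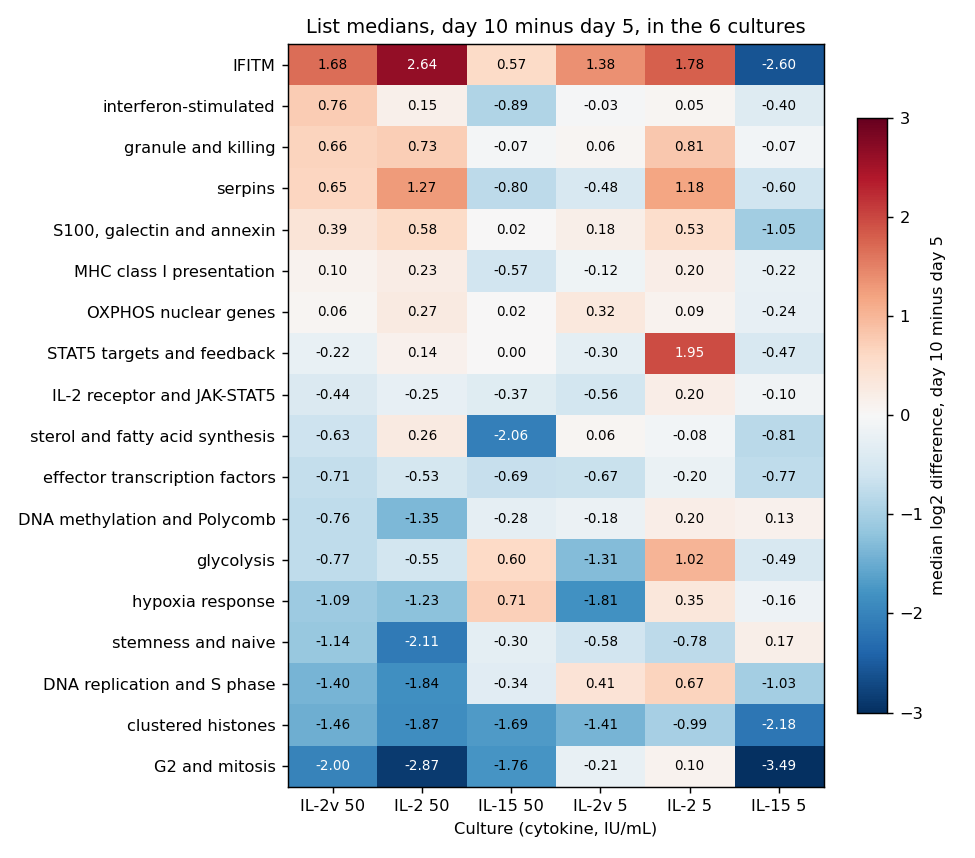
Median log2 difference, day 10 minus day 5, of 18 gene lists in the 6 cultures, named by cytokine and dose in IU/mL, on the genes measured in IL-2v 50 IU/mL. The IL-2v 50 and IL-2 50 columns share their signs in most lists, while genes of DNA replication stand at -1.40 in IL-2v 50 and 0.41 in IL-2v 5.

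Against the lower dose of IL-2v, 170 of 6394 genes (2.66%) had a difference at least 1 above and 695 (10.9%) at least 1 below. With TMM scaling these were 272 and 436, and without ribosomal protein and mitochondrial genes 286 and 628. The late granzymes stayed near 0 at the lower dose. Gzmd was at 0 CPM on day 5 and 0.123 CPM on day 10 with IL-2v 5 IU/mL, and Gzmc was at 10.9 and 4.69 CPM. Spp1 was at 0.217 and 1.10 CPM and Gzma at 18.8 and 15.3 CPM. Cell division also took another course: the share of cycling cells was 34.5% on day 5 and 31.9% on day 10 with 5 IU/mL, against 60.1% and 17.5% with 50 IU/mL. All 42 measured replication genes and 42 of 44 genes of mitosis had a difference at least 1 below that of the lower dose. Cdca7 and Mcm2 were past 2-fold in opposite directions, Mcm2 at 79.4 and 29.2 CPM here and at 34.7 and 71.5 CPM there. Both doses had Ifitm genes higher (medians of 1.68 and 1.38) and hypoxia genes lower (-1.09 and -1.81). With IL-15 50 IU/mL, 15 genes were past 2-fold in the opposite direction, 13 of them lower here and higher there, including Bnip3, Hk2, Egln3, P4ha1 and Ero1l. No day 10 library without cytokine was used here, so a change that comes with time alone cannot be told apart from one that needs the cytokine.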

How the data were processed

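The authors deposited raw counts of UMIs per gene and cell for 21 libraries, with 17516 gene symbols, per the file headers. The submitters' processing notes name Cell Ranger, Seurat 3.0.2, Seurat 4.0.1 and mm10, without their order or role. Every cell of the 2 libraries had at least 1000 UMIs and 500 genes and at most 10% mitochondrial UMIs, so none was removed. No doublet caller was run, and leaving out cells above 2 times the library median of UMIs is given as an alternative. UMIs were summed per library and scaled to the same total per library (CPM), and differences were taken on the log2(CPM + 1) scale among genes with at least 20 CPM on either day. With 1 library per condition no test was possible. Intervals are exact 95% Poisson intervals for CPM, Clopper-Pearson intervals for shares of cells and conditional binomial intervals for ratios, and they cover counting error only, since UMIs of 1 cell are not independent. Shares were taken after thinning each cell to 2000 UMIs. TMM factors came from edgeR 4.0.16 in R 4.3.3. All else was computed with Python 3.11.15, numpy 2.4.6, pandas 2.3.3 and scipy 1.17.1, with scripts tested on simulated data. Genes named are the 15 highest and 15 lowest among those with at least 50 CPM on either day, and members of 38 lists with a defining role or a large difference. Genes set apart in cells with late granzymes, and those singled out in the comparisons with other cultures, were chosen after their values were seen. The members and the lists were chosen with earlier results of these data known. Gene positions were matched by symbol to GENCODE vM21 (GRCm38), and promoter sequences to RefSeq (GRCm38.p6). A few list members are not reported here.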

Additional observations from a re-analysis of the deposited data

Results flagged for a closer look

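Results are given here where the day 10 minus day 5 difference had opposite signs with IL-2v 50 IU/mL and with IL-2 50 or IL-2v 5 IU/mL, for lists of at least 5 genes with a median of at least 0.5 in size here and 0.25 there, and for genes named by rank past 2-fold in both. Smaller opposite medians, such as ribosome biogenesis (-0.24 here, 0.66 with IL-2 50 IU/mL and 0.73 with IL-2v 5 IU/mL), fall outside these limits, and this -0.24 turns positive with TMM scaling. Each culture had 1 library per day, so these differences between cultures were not tested, and their causes were not tested either. The median of the sterol and fatty acid synthesis list was -0.63 with IL-2v 50 IU/mL and 0.26 with IL-2 50 IU/mL. The -0.63 compares with -0.37 for all genes and becomes -0.22 with the TMM shift. It was -0.21 in cells without a UMI of Mki67 or Top2a, where all genes had -0.32. In cells with one it was -0.62, where all genes had -0.33. The median of the DNA replication list was -1.40 with IL-2v 50 IU/mL and 0.41 with IL-2v 5 IU/mL. The median of the serpins was 0.65 with IL-2v 50 IU/mL and -0.48 with IL-2v 5 IU/mL. Gzmc differed by 2.47 with IL-2v 50 IU/mL and by -1.06 with IL-2v 5 IU/mL.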

How the results depend on the processing

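No paired analysis was possible because each condition had 1 library. Beyond their counting intervals, 139 of 300 alternative values of named genes and 100 of 116 of shares of cells moved, with 0 and 1 changes of sign. The named genes were picked as the furthest up and down in these data, so their signs could hardly change. Mki67 and Top2a stand at 0 by construction in cells without their UMIs, which does not count as a change of sign. Of 456 alternative list medians 40 changed sign, in 19 lists, 13 of them with TMM scaling. The log2 difference ranged from 5.29 to 8.09 for Gzmd, 4.35 to 7.97 for Gzme, 4.88 to 7.94 for Gzmg, 2.89 to 6.0 for Gzmf and -4.13 to -2.26 for Il7r. The median of all genes (-0.37) turned to 0.044 with TMM scaling and was -0.17 with totals without ribosomal protein and mitochondrial genes, -0.42 in cells with at most 5% mitochondrial UMIs, -0.35 with each cell's CPM averaged, -0.31 with a pseudocount of 10, -0.26 with no filter on genes, and -0.34 at 50 CPM or more. It was -0.31 and -0.33 in cells without and with a UMI of Mki67 or Top2a, with the 20 CPM filter applied within those cells. The 97 higher genes became 252 (TMM), 180 (those totals), 216 (no filter) and 60 (50 CPM). The 714 lower genes became 299 (TMM), 393 (pseudocount), 1409 (no filter), 360 (50 CPM), 459 (noncycling) and 390 (cycling). The 312 genes above IL-2 50 IU/mL became 542 (those totals), 144 (pseudocount), 475 (no filter) and 194 (50 CPM), and the 353 below became 176 (pseudocount), 819 (no filter) and 161 (50 CPM). The 170 genes above IL-2v 5 IU/mL became 272 (TMM), 286 (those totals), 96 (pseudocount), 382 (no filter) and 96 (50 CPM). The 695 below became 436 (TMM), 386 (pseudocount), 1127 (no filter), 345 (50 CPM), 389 (noncycling) and 366 (cycling). The difference in the share of cycling cells, -42.5 percentage points, was -36.4 with thinning to 1000 UMIs and -44.6 in cells with at most 5% mitochondrial UMIs. The share of cells with Il2rb, lower on day 10 after thinning (62.1% and 56.6%), was 1.30 points higher without thinning. For the cells with late granzymes, alternatives chosen after seeing the data gave 56 higher and 118 lower genes at 3 UMIs or more, where the interferon-stimulated median was -1.28, and 20 lower genes without thinning. The lists whose sign changed with TMM scaling include the STAT5 targets and ribosome biogenesis. The settings differ in the cells used, in the genes that enter, in the scale or, for the pseudocount, in the weight of low levels. The pseudocount of 10 kept the same 6147 genes. Depth limits low genes most, such as the late granzymes on day 5.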
